A study of Mus musculus with 8 samples.

Results

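The BCL2 family decides whether a mitochondrion releases the proteins that start the caspase cascade. Messenger RNA of 10 of its genes, chosen by name, was measured among 23337 genes in the red cell precursors and the progenitors of mice with JAK2-driven red cell overproduction. The 10 are the survival genes Bcl2, Bcl2l1 and Mcl1, the pore-forming effectors Bax and Bak1, and the BH3-only genes Bid, Bad, Bcl2l11, Bbc3 and Pmaip1. All 10 were in the table and passed the filter on low counts in every comparison. The mice were C57BL/6, 4 months old, and every group carried JAK2V617F/+, a change of 1 Jak2 allele that makes the kinase signal without cytokine. The 4 groups, of 2 libraries each, were TER119-positive erythroblasts labelled Plek2-/-, TER119-positive erythroblasts labelled Plek2+/+, lineage-negative cells positive for Kit (stem and progenitor cells) labelled Plek2-/-, and the same progenitors labelled Plek2+/+. Plek2 encodes pleckstrin-2, which acts on the actin cytoskeleton of erythroblasts. The design asks how progenitors and erythroblasts differ and what the Plek2 genotype changes in each. Mice without the JAK2 change were not analysed here, so its own effect cannot be read from these libraries.

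As background, BCL2, BCL-XL (the protein of Bcl2l1) and MCL1 hold BAX and BAK in check at the mitochondrial outer membrane. BH3-only proteins bind the survival proteins or BAX and BAK themselves, and once enough are free, BAX and BAK form pores and cytochrome c escapes. In mice, loss of Bcl-x removes maturing red cells, loss of Mcl1 depletes haematopoietic stem cells, and erythropoietin signalling through JAK2 and STAT5 is known to raise BCL-XL in erythroblasts. MCL1, BIM and NOXA are also controlled after their RNA is made, which RNA levels do not show.

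Library totals ran between 16038035 and 23521726 counts, at which a gene with no reads could still lie at up to 3 counts. That is 0.128 to 0.187 in counts-per-million (CPM) of these unscaled totals. The CPM values below are on totals scaled between libraries, so the limit is approximate for them. The sorted populations carried their markers: 9 red cell genes summed to 99968 to 123278 CPM in erythroblasts, against 1051 to 1218 CPM in progenitors, and 8 stem and progenitor genes to 157 to 226 CPM, against 967 to 1103 CPM. Neutrophil markers were present in both, where 11 genes summed to 13302 to 21935 CPM in erythroblasts and to 4362 to 24898 CPM in progenitors. Plek2 itself had 616 and 781 counts in erythroblasts labelled Plek2-/-, against 1770 and 1894 in those labelled Plek2+/+, so its RNA was lower but not absent (log2 fold change -1.21, SE 0.11, edgeR adjusted p = 9.92e-05). In progenitors it went against the label, with 130 and 173 counts in the Plek2-/- libraries, against 29 and 21 in the Plek2+/+ libraries (2.47, SE 0.28, edgeR adjusted p = 0.00253). Every genotype direction below is therefore that of the library labels. Xist, made from the inactive X of females, had 46 to 65 counts in the Plek2-/- libraries, against 37172 to 90268 in the Plek2+/+ libraries, so sex and the Plek2 label cannot be told apart. No label says whether the libraries within a group are from different mice, so p-values measure only the spread between these samples, which may be technical.

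The RNA of Bcl2l1, Bcl2, Mcl1 and Bbc3 carried the results that follow, so the 250 bases before their transcript starts are shown, from RefSeq on GRCm38.p6, in the sense of the gene. Where RefSeq gives a gene several starts, the window shown is one with no annotated exon in it. Capitals mark matches to the CACC box CCNCNCCC, the kind of site bound by the red cell factor KLF1 and by widely expressed relatives.
Bcl2l1, chr2:152831729-152831978, minus strand: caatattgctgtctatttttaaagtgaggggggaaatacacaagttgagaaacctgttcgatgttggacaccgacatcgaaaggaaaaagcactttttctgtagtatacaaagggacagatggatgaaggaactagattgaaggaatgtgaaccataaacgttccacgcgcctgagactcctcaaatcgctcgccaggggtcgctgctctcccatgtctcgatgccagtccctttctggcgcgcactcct
Bcl2, chr1:106714291-106714540, minus strand: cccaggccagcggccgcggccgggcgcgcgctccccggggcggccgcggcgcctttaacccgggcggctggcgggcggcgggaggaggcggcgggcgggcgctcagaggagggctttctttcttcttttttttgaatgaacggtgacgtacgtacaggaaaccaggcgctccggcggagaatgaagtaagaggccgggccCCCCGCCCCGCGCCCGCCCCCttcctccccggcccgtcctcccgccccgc
Mcl1, chr3:95658471-95658720, plus strand: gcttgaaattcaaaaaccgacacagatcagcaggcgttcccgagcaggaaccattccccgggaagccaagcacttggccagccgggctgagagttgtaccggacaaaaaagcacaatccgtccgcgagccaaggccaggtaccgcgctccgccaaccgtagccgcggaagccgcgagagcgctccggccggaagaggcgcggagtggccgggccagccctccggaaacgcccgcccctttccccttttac
Bbc3, chr7:16309333-16309582, plus strand: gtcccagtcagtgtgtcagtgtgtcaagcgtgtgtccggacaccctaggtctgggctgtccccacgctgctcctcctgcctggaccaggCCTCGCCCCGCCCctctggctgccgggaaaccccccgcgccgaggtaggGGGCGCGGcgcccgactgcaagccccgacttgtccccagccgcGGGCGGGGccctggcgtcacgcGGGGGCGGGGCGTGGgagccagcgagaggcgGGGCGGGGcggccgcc
The Bcl2 window shown holds 3 such matches, which run together, and the Bbc3 window 8, while the Bcl2l1 and Mcl1 windows shown hold 0. Another Bcl2l1 window, which lies inside an annotated exon, holds 2, at 208 and 55 bases before its start. The other Bbc3 windows hold 4 and 9, but they overlap each other, and matches in the shared stretch count in both. Among all 32817 RefSeq windows of this length 45.9% hold a match on either strand, and 10 of the 15 windows of 9 family genes do. The STAT motif TTCNNNGAA is in 0 of the 15 family windows and in 7.01% of all windows. The GATA motif AGATAA is in 1 of 15, a further Bcl2l1 window that also lies inside an annotated exon, and in 9.99% of all windows. The FOXO motif GTAAACA is in 2 of 15, 227 bases before a Bcl2l11 start and 167 bases before a Bbc3 start, and in 3.16% of all windows. All 4 motifs were searched on both strands, matches of CCNCNCCC may overlap each other, and a match is a description of the sequence and not a bound site.

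The first question is which family genes a cell of each kind holds most RNA of. Levels of different genes can be set side by side only per length, so counts were divided by the summed exon length of each gene and scaled to transcripts-per-million (TPM). By this measure Mcl1 led the 3 survival genes, or shared the lead, in every group, and the next of the 3 was Bcl2l1 in erythroblasts and, far behind, Bcl2 in progenitors. Among all 10 members Bcl2 came after Mcl1, Bak1, Bax and Bid in progenitors. In TPM, Bcl2l1 stood at 189.6 and 218 in Plek2-/- erythroblasts, 208 and 188 in Plek2+/+ erythroblasts, 16.02 and 18.3 in Plek2-/- progenitors, and 15.7 and 15.7 in Plek2+/+ progenitors. Bcl2 took the reverse place, with 2.76 and 2.12 TPM in Plek2-/- erythroblasts, 3.18 and 2.16 TPM in Plek2+/+ erythroblasts, 43.2 and 38.4 TPM in Plek2-/- progenitors, and 52.4 and 53.4 TPM in Plek2+/+ progenitors. For both genes the erythroblast and progenitor libraries did not overlap. Mcl1 had 212 and 209.6 TPM in Plek2-/- erythroblasts, 227 and 223 TPM in Plek2+/+ erythroblasts, 418 and 404 TPM in Plek2-/- progenitors, and 359.7 and 354 TPM in Plek2+/+ progenitors.

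Within the summed TPM of the 3 survival genes, Bcl2l1 made up 48.8% ± 2.72 in Plek2-/- erythroblasts, 46.5% ± 1.38 in Plek2+/+ erythroblasts, 3.67% ± 0.434 in Plek2-/- progenitors and 3.68% ± 0.0277 in Plek2+/+ progenitors (SD, n = 2 each). Bcl2 made up 0.588%, 0.624%, 8.70% and 12.4% in the same order, and Mcl1 50.6%, 52.9%, 87.6% and 83.9%. Bcl2l1 thus held close to the share of Mcl1 in erythroblasts and a small one in progenitors. Which of these leads in erythroblasts depends on the length used: with each gene's longest transcript, Bcl2l1 averaged 305 TPM in Plek2-/- and 297 TPM in Plek2+/+ erythroblasts, above Mcl1 at 177 TPM and 189 TPM. With summed exon length the libraries of Bcl2l1 and Mcl1 overlapped in Plek2-/- erythroblasts and did not in Plek2+/+ erythroblasts. The 3 survival genes together summed to 405 to 438 TPM over the erythroblast libraries, against 423 to 477 TPM over the progenitor libraries. That order depends on the scaling: on library totals scaled by the trimmed mean of M-values (TMM), a scaling added after seeing the data for levels per length, the same sum was 228 to 251 CPM per kilobase of exon (RPKM) in erythroblasts, against 103 to 126 RPKM in progenitors.

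**Figure D1:**
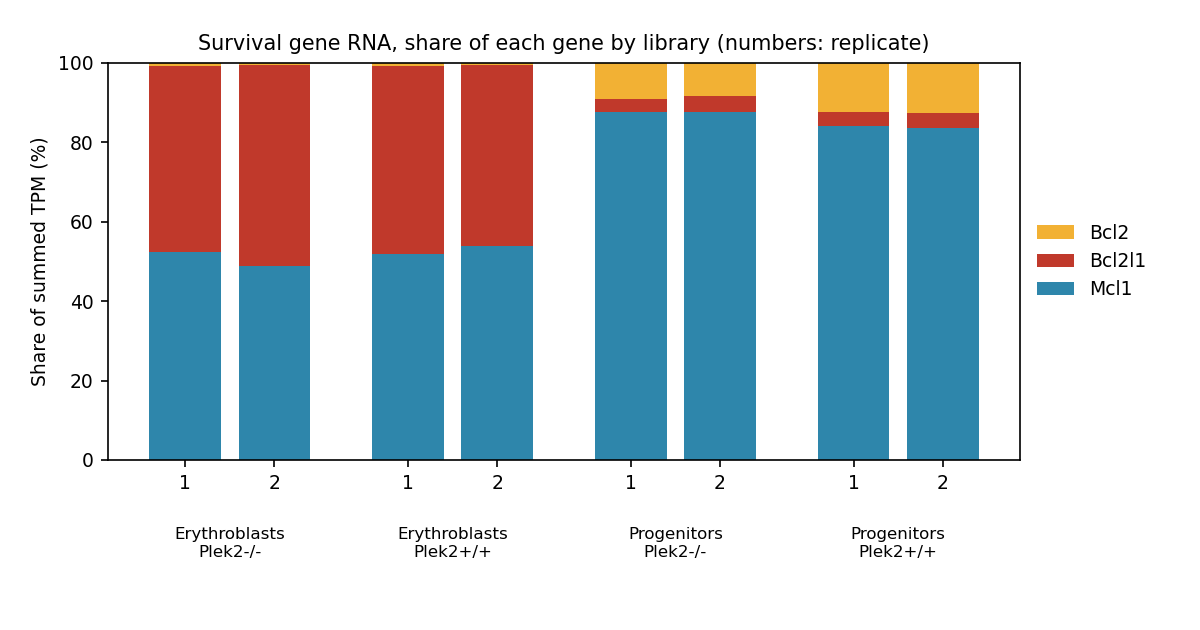
Share of the summed TPM (percent, y axis) held by Mcl1, Bcl2l1 and Bcl2 in each library, with 1 bar per library and 2 libraries per group. Bcl2l1 fills 45.5% to 50.7% of the erythroblast bars and 3.36% to 3.97% of the progenitor bars, where Bcl2 takes 8.34% to 12.6%.

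Among the effectors, which build the pore, Bax averaged 48.8 TPM in Plek2-/- erythroblasts, 44.1 TPM in Plek2+/+ erythroblasts, 79.9 TPM in Plek2-/- progenitors and 88.8 TPM in Plek2+/+ progenitors. Bak1 averaged 41.0, 42.2, 111 and 131 TPM in those groups. Bax therefore stood above Bak1 in erythroblasts, where the libraries overlapped only under the Plek2+/+ label, and below it in progenitors, where they did not overlap. With the longest transcript as length, Bax stood above Bak1 also in Plek2-/- progenitors. Of the BH3-only genes, Bid led in progenitors with 70.7 TPM under the Plek2-/- label and 78.4 TPM under the Plek2+/+ label. In erythroblasts Bbc3 led, with 26.5 TPM under the Plek2-/- label and 24.0 TPM under the Plek2+/+ label, where with the longest transcript Bid stood above it. Bad, Bcl2l11 and Pmaip1 averaged 4.47 to 11.01 TPM in erythroblasts, against 10.97 to 28.8 TPM in progenitors. On TMM-scaled totals their libraries lay closer, with Bad at 5.53 to 6.94 RPKM in erythroblasts, against 6.07 to 7.16 in progenitors, Bcl2l11 at 2.57 to 3.63, against 2.75 to 3.28, and Pmaip1 at 2.34 to 2.89, against 3.17 to 4.02. Bcl2l11 and Pmaip1 overlapped in both erythroblast groups, and Bcl2l1, Pmaip1 and Bcl2l11 overlapped as neighbours in Plek2+/+ progenitors. The 7 effector and BH3-only genes together summed to 137 to 163 TPM over the erythroblast libraries, against 319 to 377 TPM over the progenitor libraries. Here too the gap depends on the scaling, since on TMM-scaled totals the sum was 83.0 to 92.6 RPKM in erythroblasts, against 83.8 to 92.3 RPKM in progenitors, and the populations overlapped.

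Strand could not be used to separate overlapping genes, since the strand setting of the counts is not given in the sources used here. Exons of other genes cover 25.5% of the exon bases of Bak1 (Ggnbp1), 20.5% of Bad (Gpr137), 17.7% of Bid (Bcl2l13), 12.2% of Bax (Gm45808) and 6.09% of Bcl2 (D630008O14Rik). The levels of these 5 genes are uncertain to the extent that reads from those stretches were counted or dropped. Bcl2l1, Mcl1, Bcl2l11, Bbc3 and Pmaip1 share no exon bases with another annotated gene.

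**Figure D2:**
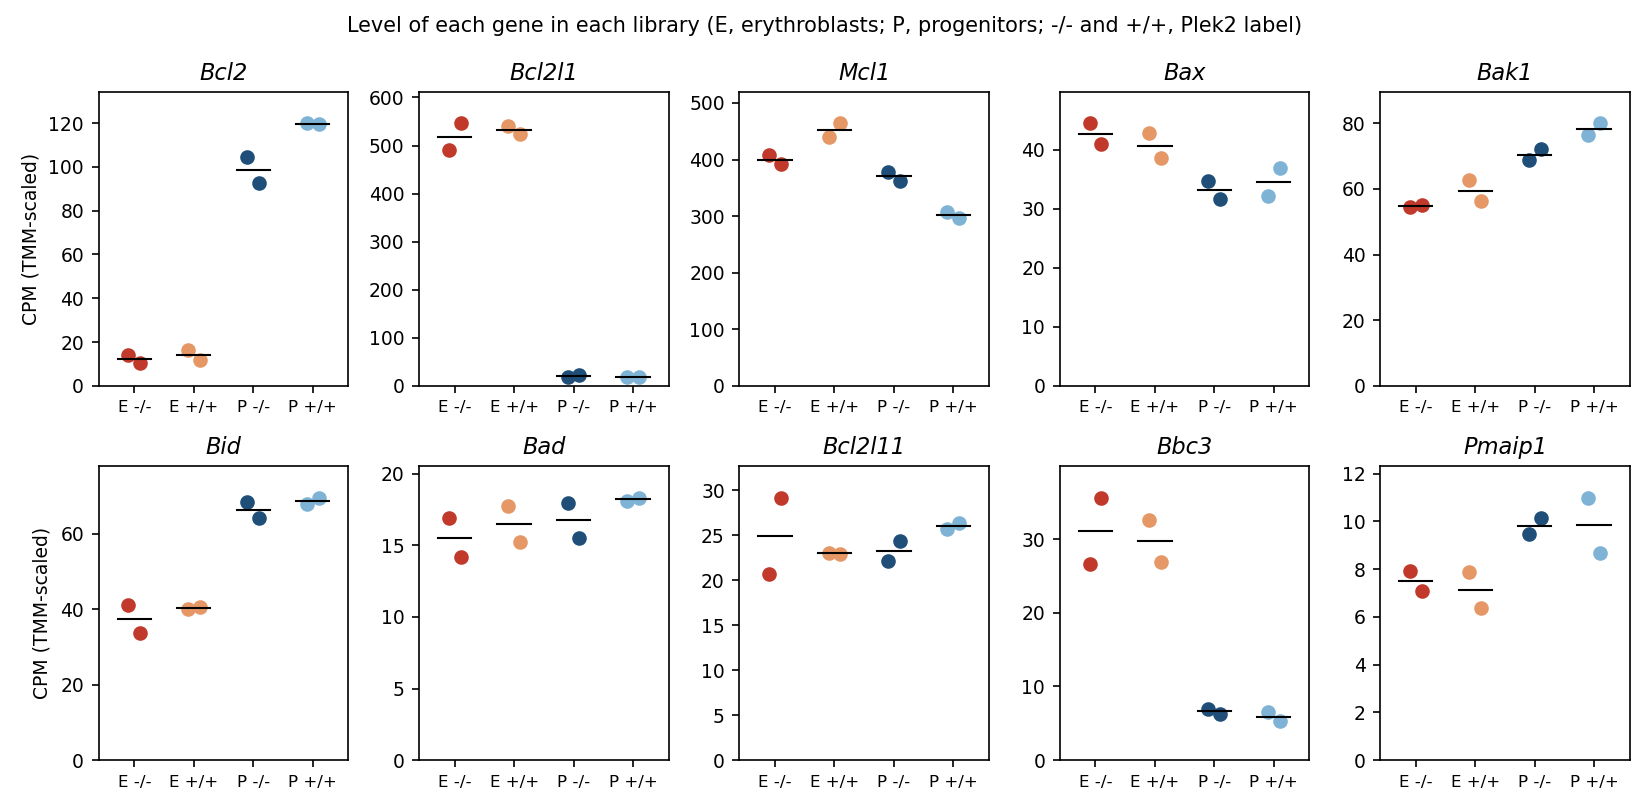
Level of each of the 10 genes in each library, in CPM on TMM-scaled totals (y axes start at 0, points are libraries, bars are means of n = 2). Bcl2l1 lies between 490.1 and 546 CPM in erythroblasts, against 17.6 to 22.0 CPM in progenitors, and Bcl2 lies the other way. On this scaling Mcl1 is lowest in Plek2+/+ progenitors, which in TPM stand above both erythroblast groups.

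The next comparison sets erythroblasts against progenitors of the same label, gene by gene, on TMM-scaled CPM. Bcl2l1 and Bbc3 were far higher and Bcl2 far lower in erythroblasts under either label, Bid and Bak1 were lower by less, and the remaining 5 genes lay between -0.45 and 0.58 on the log2 scale. Bcl2l1 had 490.1 and 546 CPM in Plek2-/- erythroblasts, against 19.4 and 22.0 CPM in Plek2-/- progenitors. Under the other label it had 541 and 524 CPM in erythroblasts, against 17.9 and 17.6 CPM in progenitors. No library of one population came near the other. The log2 fold change was 4.64 (SE 0.10, 24.9-fold) under the Plek2-/- label and 4.91 (SE 0.10, 30.0-fold) under the Plek2+/+ label, with edgeR quasi-likelihood adjusted p of 4.36e-13 and 3.48e-13. On library totals alone, which put the median of all genes 0.79 and 0.81 lower on the log2 scale, these log2 fold changes were 3.85 and 4.09.

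Bcl2 had 14.2 and 10.6 CPM in Plek2-/- erythroblasts, against 105 and 92.5 CPM in Plek2-/- progenitors, and 16.5 and 12.0 CPM in Plek2+/+ erythroblasts, against 119.8 and 119.7 CPM in Plek2+/+ progenitors. All 4 erythroblast libraries were below all 4 progenitor libraries. Bcl2 was 7.97-fold lower in erythroblasts under the Plek2-/- label (log2 -3.00, SE 0.15, edgeR adjusted p = 8.65e-10) and 8.35-fold lower under the Plek2+/+ label (-3.06, SE 0.14, edgeR adjusted p = 5.38e-10). On library totals alone the log2 fold changes were -3.78 and -3.87. Bbc3, whose product PUMA binds every survival protein of the family and is a p53 target, had 26.6 and 35.6 CPM in Plek2-/- erythroblasts, against 7.01 and 6.32 CPM in Plek2-/- progenitors. In the Plek2+/+ libraries it had 32.6 and 26.9 CPM in erythroblasts, against 6.48 and 5.26 CPM in progenitors. Bbc3 was the one death gene far higher in erythroblasts, 4.69-fold under the Plek2-/- label (log2 2.23, SE 0.17, edgeR adjusted p = 4.93e-08) and 5.11-fold under the Plek2+/+ label (2.35, SE 0.17, edgeR adjusted p = 4.22e-08). On library totals alone its log2 fold changes were 1.44 and 1.54.

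Bid, which caspase-8 cuts into its active form, had 41.2 and 33.9 CPM in Plek2-/- erythroblasts, against 68.3 and 64.1 CPM in Plek2-/- progenitors. In the Plek2+/+ libraries it had 40.2 and 40.5 CPM in erythroblasts, against 67.9 and 69.6 CPM in progenitors. It was lower in erythroblasts by log2 fold changes of -0.82 under the Plek2-/- label and -0.77 under the Plek2+/+ label (SE 0.10 each, edgeR adjusted p = 5.36e-06 and 1.02e-05). Bak1 was lower by -0.36 and -0.39 under those labels (SE 0.08 each, edgeR adjusted p = 0.00149 and 0.000810). On library totals alone the values were -1.61 and -1.58 for Bid and -1.15 and -1.21 for Bak1. The Bid and Bak1 differences lay in the same direction per length.

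Mcl1 and Bax depended on the scaling. Mcl1 had 409 and 391 CPM in Plek2-/- erythroblasts, against 378 and 363 CPM in Plek2-/- progenitors, a log2 fold change of 0.11 with a 95% interval of -0.05 to 0.28 (SE 0.08, edgeR adjusted p = 0.199). In the Plek2+/+ libraries it had 440.3 and 464 CPM in erythroblasts, against 307 and 296 CPM in progenitors (0.58, SE 0.08, edgeR adjusted p = 1.49e-05). On library totals alone Mcl1 was lower in erythroblasts, by -0.68 under the Plek2-/- label and -0.23 under the Plek2+/+ label, and it was lower in TPM too. Bax was higher in erythroblasts by 0.36 under the Plek2-/- label (SE 0.10, edgeR adjusted p = 0.00668) and by 0.23 under the Plek2+/+ label (SE 0.10, edgeR adjusted p = 0.0587), while library totals alone gave -0.42 and -0.58. No direction between populations is therefore given for Mcl1 or Bax. Pmaip1, whose product NOXA binds MCL1, had log2 fold changes of -0.39 (edgeR adjusted p = 0.0532) under the Plek2-/- label and -0.45 (0.0305) under the Plek2+/+ label. The second call was lost with DESeq2 (adjusted p = 0.0760), without replicate 2 of the Plek2+/+ erythroblasts (edgeR adjusted p = 0.274) and without replicate 1 of the Plek2+/+ progenitors (0.252). Under the Plek2-/- label the edgeR threshold was passed with no filter on low counts (adjusted p = 0.0243), with only the 4 libraries of that label (0.0485) and with a replicate block (0.0394). Pmaip1 was called under both labels on library totals alone, at -1.18 under the Plek2-/- label and -1.26 under the Plek2+/+ label. Bad and Bcl2l11 lay between -0.18 and 0.11 with no call under either label, and on library totals alone were called lower, between -0.99 and -0.68.

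In all, 3 members were called higher and 3 lower in erythroblasts under the Plek2-/- label, where 76.7% of all 13365 tested genes were called, 37.5% higher and 39.2% lower. Under the Plek2+/+ label 3 were called higher and 4 lower, where 73.8% of all genes were called, 36.0% higher and 37.8% lower. A count of 6 or 7 of 10 is near that background, so the number of called members is no result about the family. Among the members, Bcl2l1, Bcl2 and Bbc3 had the largest differences under either label, though on library totals alone Bid stood further from 0 than Bbc3. The median over the members was -0.0020 under the Plek2-/- label and -0.16 under the Plek2+/+ label, beside -0.07 and -0.06 over all genes tested. In bulk samples such as these, fewer cells of a type and less RNA per cell cannot be told apart.

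**Figure D3:**
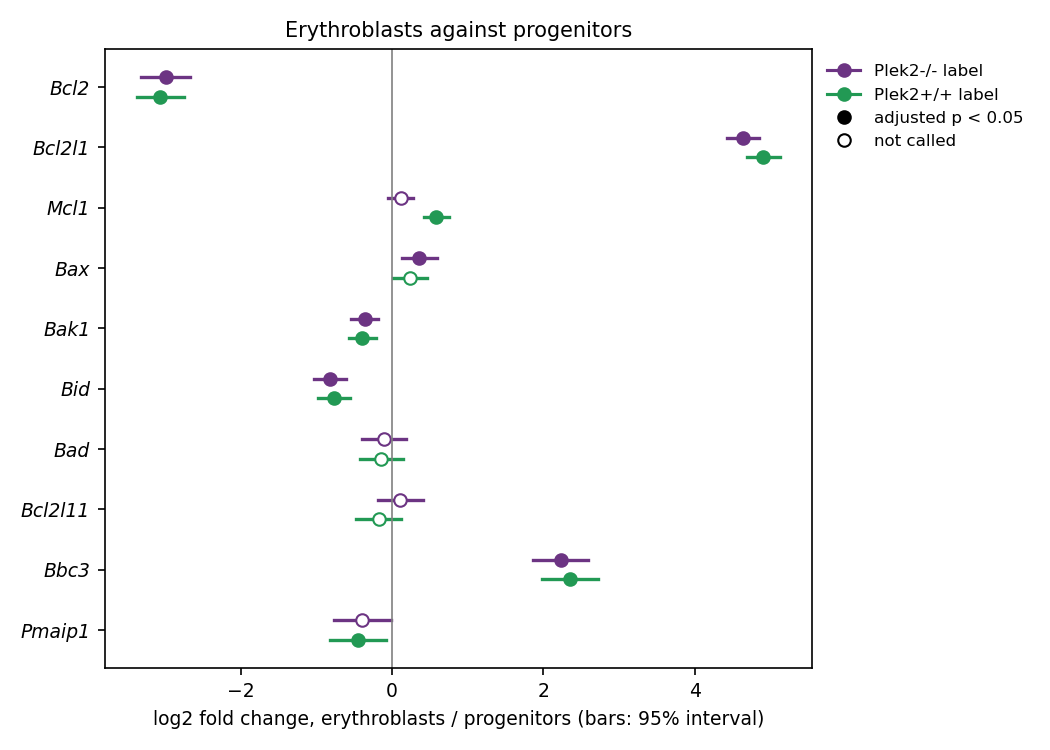
Log2 fold change of each gene in erythroblasts over progenitors (x axis, points are edgeR estimates, bars 95% intervals, filled where adjusted p is below 0.05), for libraries labelled Plek2-/- and Plek2+/+. Bcl2l1 lies at 4.64 and 4.91 and Bbc3 at 2.23 and 2.35, Bcl2 at -3.00 and -3.06, and the other 7 genes lie between -0.82 and 0.58.

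The genotype comparison asks what libraries labelled Plek2-/- show beside Plek2+/+ libraries of the same population. In erythroblasts 0 of 10 members were called, where 2.84% of 12241 genes were called, 2.66% lower and 0.18% higher. DESeq2 and limma-voom also called 0, and 0 reached an unadjusted p below 0.05. Log2 fold changes lay between -0.20 for Bcl2 and 0.13 for Bcl2l11, with a median of -0.06 over the members and 0.01 over all genes. For Bcl2l1, the survival gene most tied to this cell type, the values were 490.1 and 546 CPM under the Plek2-/- label, against 541 and 524 CPM under the Plek2+/+ label. The groups overlapped, and the 95% interval of its log2 fold change ran between -0.24 and 0.18 (estimate -0.03, edgeR adjusted p = 0.936), which leaves room for a modest difference in either direction. Mcl1 and Bak1 were the members whose libraries did not overlap, both lower under the Plek2-/- label, where 23.9% of all tested genes lay lower without overlap and 21.5% higher, so a count of 2 and 0 of 10 is no result about the family. Mcl1 was at 409 and 391 CPM, against 440.3 and 464 CPM (log2 -0.17, 95% interval -0.37 to 0.03, edgeR adjusted p = 0.441). Bak1 had 54.5 and 55.0 CPM, against 62.6 and 56.3 CPM (-0.11, edgeR adjusted p = 0.682). The other 8 overlapped, among them Bcl2l11, at 20.7 and 29.2 CPM within the Plek2-/- label.

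In progenitors 1 of 10 members was called, Mcl1, and it was higher under the Plek2-/- label, where 4.91% of 13168 genes were called, 4.50% higher and 0.402% lower. Mcl1 had 378 and 363 CPM under the Plek2-/- label, against 307 and 296 CPM under the Plek2+/+ label. The groups did not overlap, and the difference of 1.26-fold was above the spread within either group (log2 0.34, SE 0.07, 95% interval 0.19 to 0.49, edgeR adjusted p = 0.0248). Mcl1 encodes the survival protein that stem cells depend on in mice. The call was lost on library totals alone (0.28, adjusted p = 0.0579) and with all 8 libraries in the edgeR fit (0.30, adjusted p = 0.0506), within alternatives whose adjusted p ran between 0.000195 and 0.0579. It was also lost without replicate 1 or replicate 2 of the Plek2+/+ progenitors (0.37 and 0.31, edgeR adjusted p = 0.227 and 0.493).

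Beside that difference, 11 neutrophil marker genes summed to 18508 and 24898 CPM in Plek2-/- progenitors, against 7295 and 4362 CPM in Plek2+/+ progenitors, and all 11 were called higher. In erythroblasts the same genes summed to 14713 and 13302 CPM under the Plek2-/- label, against 19013 and 21935 CPM under the Plek2+/+ label, and 7 of 11 were called lower. None of the 11 was at 0 in any library. Within each population Mcl1 stood higher under the label where these markers were higher, though it was not called in erythroblasts. Over the 4 groups the order of Mcl1 depends on the scaling, so it is not set beside that of the marker sums. The part of these markers in the Mcl1 result was not tested. Of 7 monocyte and macrophage genes 1 was called higher in progenitors, with sums of 2779 and 2942 CPM under the Plek2-/- label, against 2208 and 2275 CPM under the Plek2+/+ label, and the median log2 fold change of the 7 was -0.08.

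**Figure D4:**
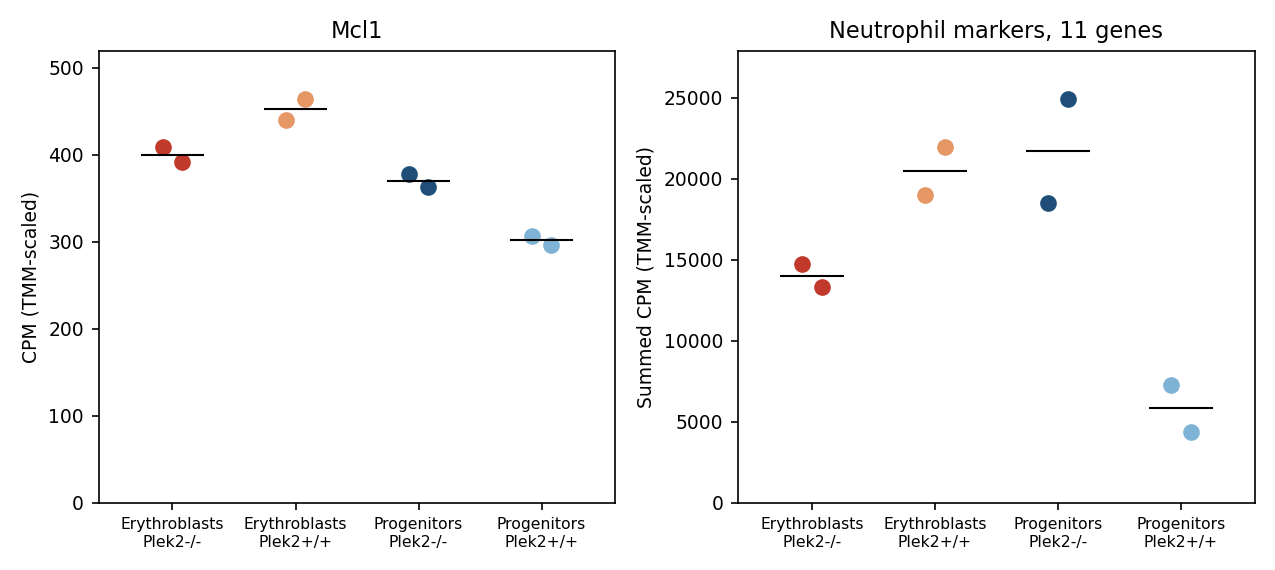
Mcl1 (left, CPM) and the summed CPM of 11 neutrophil marker genes (right) in each library, on TMM-scaled totals, with points for libraries and bars for means of n = 2. In progenitors both are higher under the Plek2-/- label, with Mcl1 at 370.1 against 301 CPM on average, and in erythroblasts both are lower under that label, with Mcl1 at 400.0 against 452 CPM, where Mcl1 was not called.

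The other survival genes of progenitors were not called. Bcl2l1 had 19.4 and 22.0 CPM under the Plek2-/- label, against 17.9 and 17.6 CPM under the Plek2+/+ label (log2 0.27, 95% interval 0.04 to 0.50, edgeR adjusted p = 0.217). Bcl2 had 105 and 92.5 CPM under the Plek2-/- label, against 119.8 and 119.7 CPM under the Plek2+/+ label (-0.24, 95% interval -0.41 to -0.07, edgeR adjusted p = 0.143). Neither pair of groups overlapped. Both passed the threshold without replicate 1 of the Plek2-/- progenitors (0.35 and -0.33, edgeR adjusted p = 0.0128 and 0.000101), and Bcl2 passed with no filter on low counts (-0.23, adjusted p = 0.0472). In all, 2 members did not overlap and were higher, Mcl1 and Bcl2l1, and 4 did not overlap and were lower, Bcl2, Bak1, Bad and Bcl2l11, beside 19.0% of all tested genes higher and 33.2% lower without overlap, shares near those of the members. The 7 effector and BH3-only genes lay between -0.12 for Bcl2l11 and 0.23 for Bbc3, none called. The median over the members was -0.02, beside -0.01 over all genes.

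**Figure D5:**
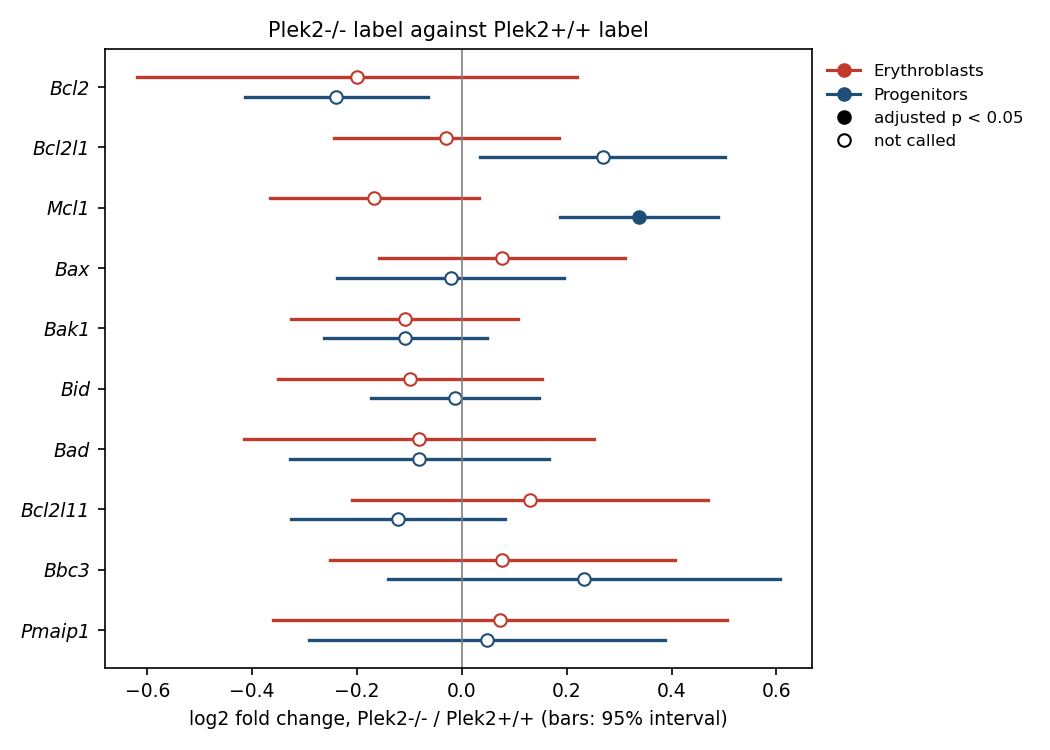
Log2 fold change of each gene in libraries labelled Plek2-/- over Plek2+/+ (x axis, points are edgeR estimates, bars 95% intervals, filled where adjusted p is below 0.05), in erythroblasts and in progenitors. The 1 filled point is Mcl1 in progenitors at 0.34, and all erythroblast intervals span 0.

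Whether the genotype effect differed between the populations was tested as an interaction in 1 fit of all 8 libraries. Mcl1 was the 1 member called, with an effect in erythroblasts lower than that in progenitors by -0.47 on the log2 scale (SE 0.11, 95% interval -0.71 to -0.24, edgeR adjusted p = 0.0210), where 5.55% of 13365 genes were called, 5.32% lower and 0.232% higher. The 11 neutrophil markers were all called lower in the same contrast, and 4 of 8 B cell markers were called lower, with a median of -1.004 and all 8 at an unadjusted p below 0.05. The part of either in the Mcl1 result was not tested. The Mcl1 call was lost without replicate 2 of the Plek2+/+ erythroblasts (edgeR adjusted p = 0.0526), without replicate 1 of the Plek2+/+ progenitors (0.0920) and without replicate 2 of the Plek2+/+ progenitors (0.166). Bcl2l1 differed by -0.27 (95% interval -0.55 to 0.01, edgeR adjusted p = 0.300), and Bcl2l11 by 0.28 (edgeR adjusted p = 0.483). The other 7 lay between -0.13 for Bbc3 and 0.13 for Bax. The median over the members was 0.03, beside 0.04 over all genes.

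Around these members stand 16 other genes of the family. Between populations 12 of them were tested, with 5 called higher and 4 lower in erythroblasts under the Plek2-/- label and 5 higher and 3 lower under the Plek2+/+ label. Counts of 9 and 8 of 12 are near the 76.7% and 73.8% of all genes tested, the shares against which the population counts of the lists that follow are also to be read. For genotype counts of the lists, the shares of all genes called higher and lower were 0.18% and 2.66% in erythroblasts. They were 4.50% and 0.402% in progenitors, and 0.232% and 5.32% for the interaction. Bnip3l, whose product NIX clears mitochondria from maturing red cells, had 825 and 758 CPM in Plek2-/- erythroblasts, against 67.0 and 77.0 CPM in Plek2-/- progenitors, and 854 and 885 CPM in Plek2+/+ erythroblasts, against 72.0 and 68.9 CPM in Plek2+/+ progenitors. It was 10.98-fold higher in erythroblasts under the Plek2-/- label and 12.3-fold higher under the Plek2+/+ label (edgeR adjusted p = 3.78e-12 and 2.90e-12). Bcl2l13, another mitochondrial outer membrane protein, was higher by log2 1.67 and 1.35 under those labels (0.89 and 0.53 on library totals alone, where Bnip3l stood at 2.67 and 2.81), and 628 of its exon bases lie opposite those of Bid. By genotype 9 were tested in erythroblasts and 1 was called, Bmf, a BH3-only gene, which fell by 0.78 on the log2 scale under the Plek2-/- label (SE 0.15, edgeR adjusted p = 0.0208). Bmf had 16.9 and 12.8 CPM there, against 27.2 and 23.9 CPM under the Plek2+/+ label, and the groups did not overlap. Its call was lost without replicate 2 of the Plek2-/- erythroblasts (edgeR adjusted p = 0.0897) and without replicate 1 or 2 of the Plek2+/+ erythroblasts (0.187 and 0.0833). Beside it, 8 B cell markers summed to 95.1 and 72.9 CPM under the Plek2-/- label, against 175 and 152 CPM under the Plek2+/+ label, with 5 called lower, and 6 mast cell, basophil and eosinophil markers to 1293 and 871 CPM, against 2040 and 2432 CPM, with 3 called lower. Their part, and that of the neutrophil markers, was not tested. In progenitors 0 of 11 were called, with 1 at an unadjusted p below 0.05, and the most abundant, Bnip3l, stood at log2 0.07 (edgeR adjusted p = 0.722). For the interaction 0 of 12 were called, with 2 at an unadjusted p below 0.05. Hrk was listed at 0 in all libraries, and the near-identical Bcl2a1 copies had at most 50 counts, among which shared reads cannot be placed. The median log2 fold change of the list by genotype was 0.07 in erythroblasts and 0.08 in progenitors, and for the interaction -0.32, and between populations 0.03 under the Plek2-/- label and 0.62 under the Plek2+/+ label. Over all genes tested those medians were 0.01, -0.01, 0.04, -0.07 and -0.06.

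Of 9 death receptor and adaptor genes, which act upstream of Bid, Fas was called in each genotype comparison. Fas had 4.85 and 3.47 CPM in Plek2-/- erythroblasts, against 8.32 and 8.48 CPM in Plek2+/+ erythroblasts, and fell 2.02-fold (log2 -1.01, SE 0.22, edgeR adjusted p = 0.0294). It had 9.31 and 9.24 CPM in Plek2-/- progenitors, against 6.06 and 4.82 CPM in Plek2+/+ progenitors, and rose 1.77-fold (0.82, SE 0.15, edgeR adjusted p = 0.0209). In neither population did the groups overlap, and the difference between the effects was -1.80 (SE 0.27, edgeR adjusted p = 0.00122). The erythroblast call was lost on library totals alone (adjusted p = 0.0516), without replicate 2 of the Plek2-/- erythroblasts (edgeR adjusted p = 0.181) and without replicate 1 or 2 of the Plek2+/+ erythroblasts (0.166 and 0.142). The progenitor call was lost without replicate 2 of the Plek2+/+ progenitors (edgeR adjusted p = 0.219). Neutrophil markers differed in the same directions, B cell markers in erythroblasts were lower by the values given above, and the part of either was not tested. Tnfrsf1a, the main TNF receptor, also differed between the effects (-0.62, SE 0.14, edgeR adjusted p = 0.0191), a call lost in 4 of the 8 fits that left out a replicate (0.0526 to 0.0909, without replicate 2 of the Plek2-/- progenitors, replicate 2 of the Plek2+/+ erythroblasts or either Plek2+/+ progenitor replicate). Between populations 0 genes of this list were called higher and 6 lower in erythroblasts under the Plek2-/- label, 1 higher and 6 lower under the Plek2+/+ label. Tnfrsf1a was lower by -1.70 and -1.08, and Cflar, an inhibitor of caspase-8, by -0.85 and -0.54. Tnfrsf1a stood at -2.48 and -1.90 and Cflar at -1.64 and -1.35 on library totals alone. List medians by genotype were -0.15 in erythroblasts and -0.0027 in progenitors, with -0.31 for the interaction, and between populations -0.85 and -0.54.

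Downstream of the pore, 21 apoptosome, caspase and inhibitor genes were tested, and 0 were called by genotype in erythroblasts or in progenitors, with 2 and 1 at an unadjusted p below 0.05. Birc3, an inhibitor of cell death downstream of TNF receptors, was the 1 gene called for the interaction (-0.64, SE 0.17, edgeR adjusted p = 0.0456). It was lost on library totals alone (adjusted p = 0.0668) and without replicate 2 of the Plek2-/- erythroblasts, replicate 2 of the Plek2-/- progenitors or any Plek2+/+ library (edgeR adjusted p = 0.0733 to 0.163). In erythroblasts over progenitors 11 were called higher and 6 lower under the Plek2-/- label, 10 higher and 6 lower under the Plek2+/+ label. Birc5, which encodes survivin and serves cell division as well, had 412 and 428 CPM in Plek2-/- erythroblasts, against 68.3 and 68.2 CPM in Plek2-/- progenitors (log2 2.62, SE 0.08, edgeR adjusted p = 8.38e-12). Its log2 fold change under the Plek2+/+ label was 2.58, and that of Birc2, a relative, was 0.95 under the Plek2-/- label and 1.01 under the Plek2+/+ label. On library totals alone Birc5 stood at 1.83 and 1.77 and Birc2 at 0.16 and 0.20. Medians of these 21 genes by genotype were 0.04 in erythroblasts and -0.06 in progenitors, with 0.11 for the interaction, and between populations 0.33 and 0.04.

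Of 16 genes of the erythropoietin, JAK2 and STAT5 pathway, which is known to act on Bcl2l1 in red cell precursors, 0 were called by genotype in erythroblasts, with 2 at an unadjusted p below 0.05. Klf1, the most abundant, stood at log2 -0.01 there. In progenitors 3 were called higher under the Plek2-/- label and 0 lower, beside 4.50% higher and 0.402% lower of all genes tested. Socs3, a feedback inhibitor of JAK signalling, had 27.6 and 26.5 CPM under the Plek2-/- label, against 13.1 and 13.9 CPM under the Plek2+/+ label, and rose by log2 1.04 (SE 0.09, edgeR adjusted p = 0.00154). Osm, a cytokine gene that STAT5 induces, had 45.9 and 42.3 CPM, against 27.4 and 25.5 CPM, and rose by 0.78 (SE 0.09, edgeR adjusted p = 0.00233), and Bcl6 was the third. The neutrophil markers given above moved with them, and their part was not tested. Socs3 and Osm also differed between the genotype effects, by -1.24 and -0.89 (edgeR adjusted p = 0.00184 and 0.0107), among 3 called lower and 0 higher, and the Osm call was lost without replicate 2 of the Plek2+/+ progenitors (edgeR adjusted p = 0.0605). Between populations 7 were called higher and 8 lower under the Plek2-/- label, 8 higher and 4 lower under the Plek2+/+ label. Epor, the erythropoietin receptor, was higher in erythroblasts by 3.69 under the Plek2-/- label and 3.56 under the Plek2+/+ label, beside 4.64 and 4.91 for Bcl2l1, and on library totals alone by 2.91 and 2.74. The part of Epor in the Bcl2l1 values was not tested. Medians of the 16 genes by genotype were -0.06 in erythroblasts and 0.02 in progenitors, with 0.02 for the interaction, and between populations -0.13 and 0.48.

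By the root mean square of the differences between centred log2 profiles over the 8 libraries, among 8954 genes with a mean of at least 10 CPM, the genes most like Bcl2l1 were Cd5l (0.0542), Bsdc1 (0.0583), Tspo2 (0.0640), Mkrn1 (0.0788) and March2 (0.0851). Those most like Bcl2 were Spns2 (0.144), Il6st (0.150), Ptprs (0.152), Arhgap32 (0.158) and Eltd1 (0.163). Those most like Mcl1 were Itm2b (0.0426), Snx11 (0.0686), Sirt7 (0.0688), Degs1 (0.0767) and Rab24 (0.0778). The profiles were log2(CPM + 1), and the added 1 narrows differences for genes with few CPM. Cd5l averaged 77.2 CPM in Plek2-/- and 74.4 CPM in Plek2+/+ erythroblasts, against 2.01 and 1.57 CPM in progenitors of those labels. It passed the 10 CPM mean through erythroblasts, and its distance depends on the added 1. Spns2 and Arhgap32 passed that mean through progenitors, and their distances depend on the added 1 too. In Plek2-/- and Plek2+/+ erythroblasts Spns2 averaged 3.20 and 4.05 CPM, and Arhgap32 2.95 and 3.07 CPM. The values in brackets are distances in log2 units and describe likeness over these libraries only.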

How the data were processed

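RNA sequencing was done on total RNA of 8 libraries, 2 in each of 4 groups. The deposited table of raw counts gives whole numbers of reads per gene for 23337 genes by symbol. A second deposited table holds normalized signal, counts divided by a size factor per library, and served only to read those factors. Per the submitters' processing notes, the tools were cutadapt 1.13, STAR 2.5.2a, HTSeq 0.6.1pl and DESeq2 1.14.1, with build mm10. The annotation used for counting and its strand setting were not given in the sources used here.

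Each comparison was fitted on all genes by the quasi-likelihood test of edgeR 4.0.16 (R 4.3.3) after filterByExpr and TMM scaling. A call needed an adjusted p (Benjamini-Hochberg, over all genes tested) under 0.05 and no minimum fold. Genotype effects used the 4 libraries of a population, and the interaction and population differences used 1 fit of all 8. Positive values are higher in Plek2-/- libraries or in erythroblasts. Limits of 3 counts cover counting error only, since reads are not marked by molecule. Replicates differed by more than counting error (chi-square per degree of freedom 5.65 to 15.7). TPM used GENCODE vM21 exon lengths on GRCm38, which placed 22873 genes (98.0%), and positions of motifs are from RefSeq. The test was checked on simulated data. Alternatives were DESeq2 1.42.0, limma-voom (limma 3.58.1), other scalings, no filter, a replicate block and leaving out each replicate.

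The members and the gene lists were chosen with earlier results of these data known. All 10 members are named. List genes with a printed fold change, other than Bcl6, come from the 2 calls of smallest adjusted p per comparison, or are the most abundant gene if a list has no call. Not every gene picked this way is printed. Motifs and the genes most like Bcl2l1, Bcl2 and Mcl1 are descriptions with no test.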

Additional observations from a re-analysis of the deposited data

Results flagged for a closer look

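The test of the difference between the genotype effect in erythroblasts and that in progenitors (edgeR interaction, log2 scale) picked out Mcl1 among the members, at -0.47. It also picked out Plek2 at -3.66, Fas at -1.80, Socs3 at -1.24, Osm at -0.89, Birc3 at -0.64, Tnfrsf1a at -0.62 and Cdkn1a at 1.09. Cdkn1a, which encodes the cell cycle inhibitor p21, is the 1 gene of these whose effect was higher in erythroblasts than in progenitors, and its call was lost in 4 of the 8 fits that left out a replicate (edgeR adjusted p = 0.0583 to 0.0967). The fits in which the calls of Mcl1, Osm, Birc3 and Tnfrsf1a were lost are given above. Of all 13365 genes tested, 5.55% were called in this contrast, 5.32% lower and 0.232% higher. The 11 neutrophil markers and 4 of 8 B cell markers were called lower in the same contrast, and their part in the values of the named genes was not tested. Sex and the Plek2 label cannot be told apart in either population.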

How the results depend on the processing

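Of the members' test values under alternatives that kept all libraries, 370 held their direction and side of the threshold, 11 gained a call, 3 lost one and 6 turned. Library totals alone turned Mcl1 (-0.68 and -0.23) and Bax (-0.42 and -0.58) between populations under the Plek2-/- and Plek2+/+ labels, Bcl2l11 under the Plek2-/- label (-0.68) and Pmaip1 by genotype in progenitors (-0.012). They called 2307 genes higher and 8957 lower in erythroblasts under the Plek2-/- label (5009 and 5242 with TMM), 2111 and 9171 under the Plek2+/+ label (4818 and 5047), and 527 and 133 by genotype in progenitors (593 and 53). The cause was not tested.

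Calls by genotype in erythroblasts numbered 348, and 230 on library totals, 547 with the authors' size factors, 845 with no filter and 579 with a replicate block. They ran between 25 and 995 with a replicate left out (995 and 119 without replicate 1 or 2 of Plek2-/-, 34 and 25 without replicate 1 or 2 of Plek2+/+). In progenitors there were 646 calls, 1315 with no filter, 813 with the replicate block and 239 to 2649 with a replicate left out (2649 and 1739 without replicate 1 or 2 of Plek2-/-, 239 without replicate 2 of Plek2+/+). For the interaction there were 742, 1215 with no filter, 712 with the block and 401 to 1175 with a replicate left out (1175 without replicate 1 of the Plek2-/- erythroblasts, 401 without replicate 2 of the Plek2+/+ progenitors). The population differences gave 10274 and 9903 calls with the block under the Plek2-/- and Plek2+/+ labels. The numbers were not taken as pairs, since deviations of same-numbered libraries correlated between labels at 0.034 in erythroblasts and -0.076 in progenitors, and between populations at 0.10 under the Plek2-/- label and 0.046 under the Plek2+/+ label. With the block Pmaip1 was called lower in erythroblasts under the Plek2-/- label (edgeR adjusted p = 0.0394). Levels were also set on TMM-scaled totals per length, an alternative chosen after seeing the data.

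Leaving out a replicate turned the values of the genes that follow, none of them called with all libraries. With all libraries these values lay between -0.20 for Bcl2 in erythroblasts and 0.28 for Bcl2l11 in the interaction. In erythroblasts the ranges were -0.43 to 0.054 for Bcl2, -0.12 to 0.039 for Bcl2l1, -0.017 to 0.16 for Bax, -0.25 to 0.032 for Bid, -0.22 to 0.038 for Bad, -0.15 to 0.34 for Bcl2l11, -0.16 to 0.26 for Bbc3 and -0.089 to 0.24 for Pmaip1. In progenitors they were -0.11 to 0.083 for Bax, -0.062 to 0.034 for Bid, -0.19 to 0.023 for Bad and -0.12 to 0.22 for Pmaip1. For the interaction they were -0.19 to 0.25 for Bcl2, -0.082 to 0.065 for Bak1, -0.24 to 0.022 for Bid, -0.14 to 0.14 for Bad, -0.055 to 0.47 for Bcl2l11, -0.42 to 0.026 for Bbc3 and -0.12 to 0.23 for Pmaip1. Between populations they were -0.22 to 0.013 for Bad and -0.17 to 0.35 for Bcl2l11 under the Plek2-/- label and -0.18 to 0.011 for Bad under the Plek2+/+ label. With 2 libraries a group, a left-out replicate leaves a lone library that is assumed to vary like the others.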

Other observations

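Of 11 genes in a list around p53 and the FoxO factors, not all of them regulators of the family, 10 were tested. In erythroblasts 1 was called higher under the Plek2-/- label and 0 lower, with 3 at an unadjusted p below 0.05. Cdkn1a, a p53 target, had 12.8 and 15.98 CPM under the Plek2-/- label, against 8.26 and 7.06 CPM under the Plek2+/+ label, and rose 1.89-fold (log2 0.92, SE 0.18, edgeR adjusted p = 0.0216). The groups did not overlap, and the call was lost without replicate 2 of the Plek2-/- erythroblasts (edgeR adjusted p = 0.128) and without replicate 1 or 2 of the Plek2+/+ erythroblasts (0.0993 and 0.160). Bbc3, a p53 target among the members, stood at 0.08 in the same comparison, and the part of p53 in these values was not tested. In progenitors 0 were called, with 2 at an unadjusted p below 0.05. In erythroblasts over progenitors 7 were called higher and 2 lower under the Plek2-/- label, and 6 higher and 4 lower under the Plek2+/+ label. Foxo3, a forkhead factor known to drive Bcl2l11 and Bbc3 when growth signals fall, had 327 and 372 CPM in Plek2-/- erythroblasts, against 56.1 and 62.0 CPM in Plek2-/- progenitors. Its log2 fold change was 2.57 under the Plek2-/- label and 2.64 under the Plek2+/+ label (1.78 and 1.82 on library totals alone), beside 0.11 and -0.18 for Bcl2l11 and 2.23 and 2.35 for Bbc3. The part of Foxo3 in the Bcl2l11 and Bbc3 values was not tested. List medians by genotype were 0.15 in erythroblasts and 0.09 in progenitors, with 0.02 for the interaction, and between populations 0.68 under the Plek2-/- label and 0.62 under the Plek2+/+ label.

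Of 6 genes whose products mark MCL1 or BIM protein for breakdown or spare it, 0 were called by genotype in erythroblasts, in progenitors or for the interaction, with 0, 0 and 1 at an unadjusted p below 0.05. In erythroblasts over progenitors 5 were called higher and 1 lower under the Plek2-/- label, and 4 higher and 1 lower under the Plek2+/+ label. Btrc, a substrate adaptor of a ubiquitin ligase, had 193 and 219.9 CPM in Plek2-/- erythroblasts, against 25.8 and 28.5 CPM in Plek2-/- progenitors, with log2 fold changes of 2.93 under the Plek2-/- label and 2.86 under the Plek2+/+ label, and on library totals alone of 2.14 and 2.05. Medians of the 6 genes by genotype were 0.11 in erythroblasts and 0.02 in progenitors, with 0.11 for the interaction, and between populations 0.86 under the Plek2-/- label and 0.74 under the Plek2+/+ label.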
